A study of Rattus norvegicus with 10 samples.

Results

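Kainate receptors are ionotropic glutamate receptors built from the products of Grik1 to Grik5, and the rows of the deposited table whose trimmed symbol was Grik1, Grik2, Grik3, Grik4 or Grik5 were taken as members. All 5 were found, each in 1 row, among 16041 listed genes, and all 5 passed the filter that left 14642 genes for testing. The libraries came from prefrontal cortex of male Sprague-Dawley rats at postnatal day 91, with 5 control libraries and 5 libraries of rats that had gone through early life stress (ELS). ELS was a limited nesting paradigm applied between postnatal days 2 and 9, in which dam and pups have scarce nest material. The comparison asks which transcripts differed in adult cortex after stress in the first days of life. The labels do not give litters or say whether tissue was pooled, so the p-values rest on the spread among these libraries alone.

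GluK1, GluK2 and GluK3, from Grik1, Grik2 and Grik3, can form working channels of their own and bind kainate with lower affinity. GluK4 and GluK5, from Grik4 and Grik5, bind kainate with high affinity but need a partner from the first set to reach the surface and conduct. In forebrain these receptors act on both sides of the synapse, carrying slow synaptic currents and tuning the release of glutamate and GABA. The proteins NETO1 and NETO2 join the channels as auxiliary subunits and slow their gating.

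Levels are RPKM, reads scaled by the length of the gene model and the total of the library. A pair of values joined by ± is the mean and SD of a group of 5 libraries. A difference between groups is the log2 fold change of ELS over control, computed from log2(RPKM + 0.1), with its standard error (SE) from limma fitted over all tested genes. The adjusted p is the Benjamini-Hochberg value over those genes, called under 0.05. Library totals recovered from the values were 18838898 to 22311136 reads. Members drew on 190 to 4077 reads in a library, the fewest in Grik1 and the most in Grik5. In bulk tissue, fewer cells of a type and less RNA per cell cannot be told apart.

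The library labelled control replicate 4 stood apart from the other 9 and bears on several members. Of the genes tested, 8.62% lay at least 1.5 times above or below every other library in it, against 0.676% to 1.8% for any other library. The cortical projection neuron genes Cux2 and Tbr1 were at 4.46 and 9.37 RPKM in it. In the other 9 libraries their ranges were 17.2 to 22.2 and 23.1 to 35.5 RPKM. The excitatory neuron genes did not move as 1 there. Of 10 listed, 4 lay below every other library in control replicate 4 and 4 above. Neurod6, among those above, was at 79.4 RPKM against 22.3 to 42.7 elsewhere. A list of 10 genes known from hippocampal fields was chosen after the values were seen, and 4 of them had a row in the table. The dentate granule cell gene Prox1 was at 13.5 RPKM in control replicate 4 and at 0.839 to 1.30 elsewhere. Wfs1 was at 94.3 against 40.7 to 60.5 RPKM, while Zbtb20, at 0.529 RPKM, lay within the range of the others. C1ql2, also on that list, is described below with the kainate receptor ligands. What set this library apart was not tested, and the members' differences between groups are given with it, and also without it where it moves the direction or the size.

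**Figure D1:**
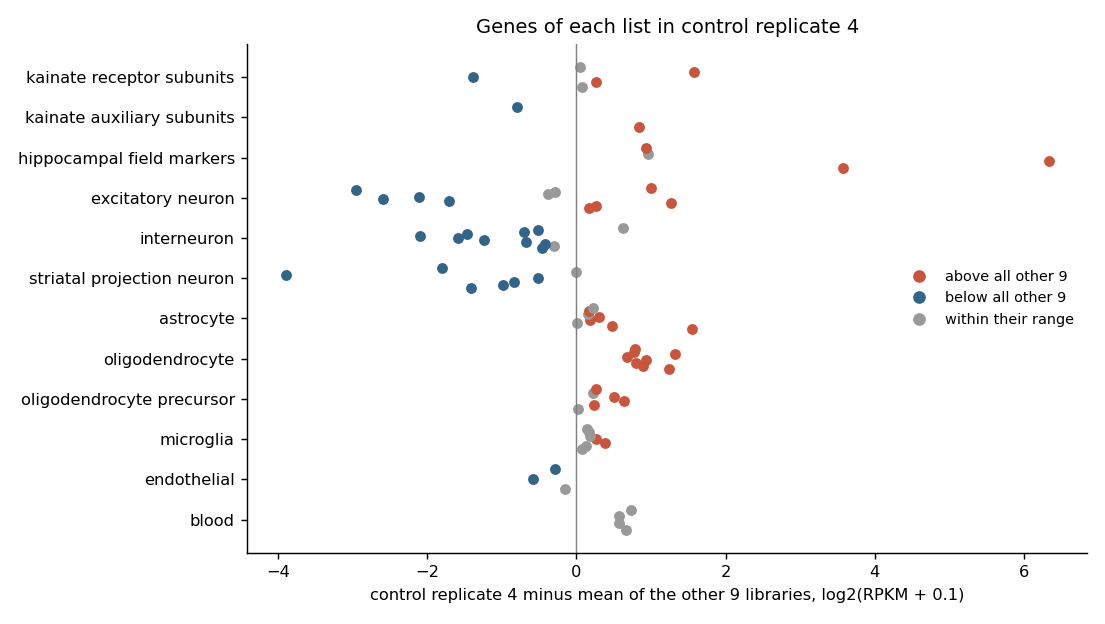
Each point is a gene of the list named on the y axis, and the x axis is its log2(RPKM + 0.1) in control replicate 4 minus the mean of the other 9 libraries. Red and blue points lie above and below all other libraries. Grik4 and Neto1 lie on the high side, Grik3 and Neto2 on the low side, and 9 of 11 interneuron genes and 6 of 7 striatal projection neuron genes lie below all others.

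Grik5 was the most abundant member and Grik1 the least. Grik5 made up 53.4% to 62.4% of the summed RPKM of the 5 genes in any library, with the lowest share in control replicate 4 and 56.6% the next, and Grik1 made up 3.86% to 4.69%. Grik5 exceeded Grik2, the next by mean level, in 10 of 10 libraries, with a mean log2 ratio of 2.25 ± 0.19 (SD, exact sign-flip permutation test, two-sided, adjusted p = 0.00391 over 4 pairs of neighbours). Grik4 exceeded Grik1 in 10 of 10 libraries (mean log2 ratio 1.30 ± 0.49, exact permutation adjusted p = 0.00391).

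The 3 members in the middle could not be put in order over all 10 libraries. Grik2 exceeded Grik3 in 5 of 10 (mean log2 ratio 0.07 ± 0.59, exact permutation adjusted p = 0.832). These were 5 of 5 controls and 0 of 5 ELS libraries, so the pooled value mixes 2 opposite orders. Grik3 exceeded Grik4 in 8 of 10 (0.14 ± 0.97, exact permutation adjusted p = 0.832). Without control replicate 4 the second difference passed (0.44, exact permutation adjusted p = 0.0104) and the first changed sign to -0.10 (exact permutation adjusted p = 0.340).

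The summed RPKM of the 5 genes was 79.3 ± 7.24 in controls and 80.6 ± 1.73 in ELS. It ran from 71.0 to 91.0 in controls and from 78.6 to 82.5 in ELS, and the highest control value was that of replicate 4. The other 4 controls ran from 71.0 to 78.7, so without that library 4 of 5 ELS libraries lay above every control, where with it all ELS libraries lay inside the control range. The high-affinity genes Grik4 and Grik5 together made up 67.5% to 78.8% of the sum in controls and 67.4% to 71.1% in ELS, and the highest value was that of control replicate 4, with the other controls reaching 72.3%.

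**Figure D2:**
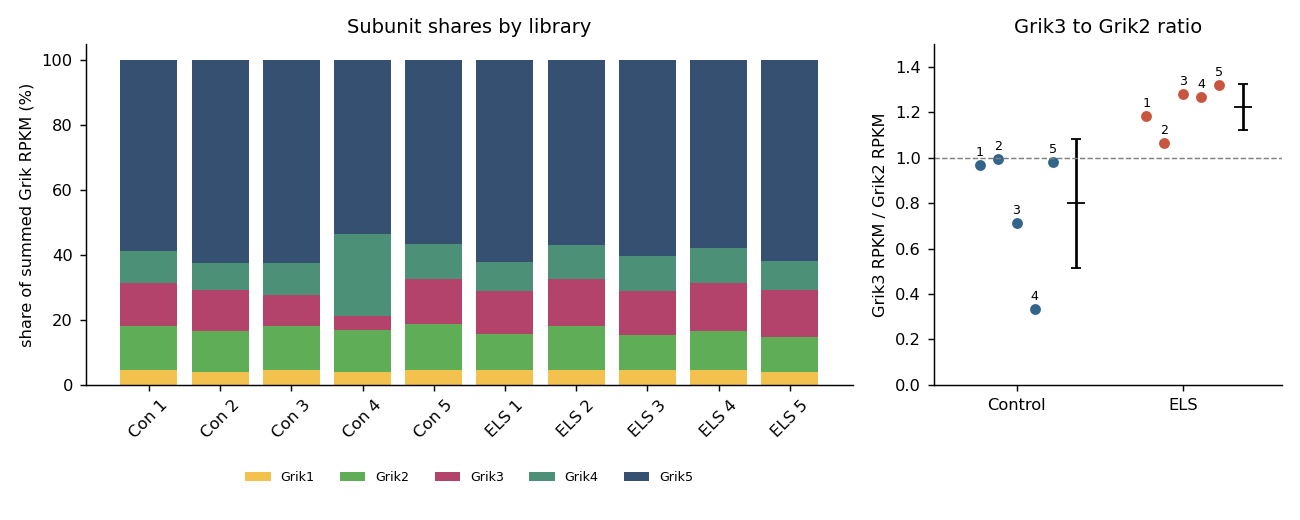
Left, the share of each member in the summed Grik RPKM (%, stacked bars) in each library. Right, Grik3 RPKM divided by Grik2 RPKM (points numbered by replicate, bar is mean ± SD, dashed line at equal levels): the 5 controls run from 0.336 to 0.994 and the 5 ELS libraries from 1.06 to 1.32.

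No member passed the test between ELS and control with all 10 libraries. Over all 14642 genes 0 passed, a background of 0% called, by limma, by limma without control replicate 4, and by limma-voom on recovered reads. When limma-voom also weighted each library by its quality, 6.45% of all genes passed and 0 of the members. At an unadjusted p under 0.05, 2 of the 5 members and 20.4% of all genes stood out by limma, 21% of all genes by limma-voom. These members were Grik3, on the higher side as 10.1% of all genes, and Grik2, on the lower side as 10.3% of all genes. The median log2 fold change was 0.06 over the 5 members and 0.00371 over all genes tested.

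**Figure D3:**
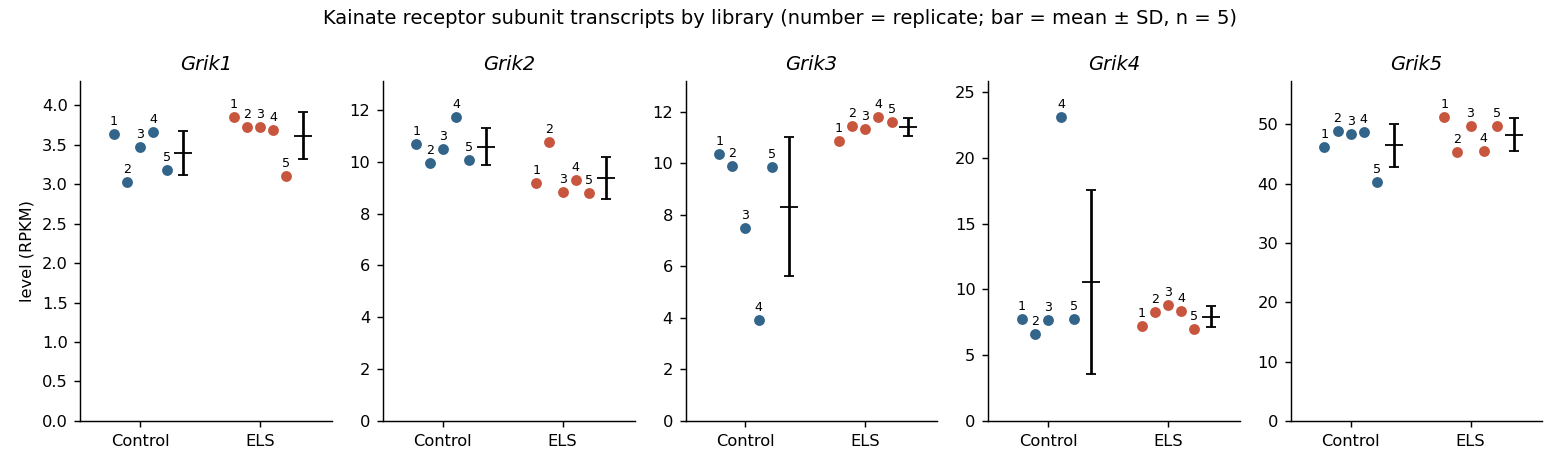
RPKM (y axis, linear from 0) of Grik1 to Grik5 in each control and ELS library, points numbered by replicate, bar is mean ± SD of 5 libraries. The ELS points of Grik3 lie above all control points, and the Grik4 value of control replicate 4, at 23.1 RPKM, lies far above the other 9.

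Grik2 encodes GluK2, a main pore-forming subunit of forebrain kainate receptors whose transcript is edited at the Q/R site of the pore. Grik2 (ENSRNOG00000000368) was at 10.7, 9.97, 10.5, 11.7 and 10.1 RPKM in control replicates 1 to 5. In ELS replicates 1 to 5 it was at 9.18, 10.8, 8.85, 9.30 and 8.80 RPKM. ELS replicate 2 lay inside the control range, and the other 4 ELS libraries lay below every control. The means were 10.6 ± 0.697 and 9.38 ± 0.807 RPKM, a log2 fold change of -0.17 ± 0.07 (SE; 95% interval -0.33 to -0.02; limma, adjusted p = 0.195). Leaving out ELS replicate 2 gave -0.23 (limma, adjusted p = 0.0675), and leaving out control replicate 4 gave -0.14 (limma, adjusted p = 0.246). ELS replicate 2 did not stand apart by the count of extreme genes above. That count needs a library to lie beyond all others, so it cannot show an ELS library lying near the controls. Mean chi-square per gene, a measure of how far 2 libraries differ, was 6.94 to 15.5 between ELS replicate 2 and the other ELS libraries. Among those others it was 2.87 to 6.88, and among the controls other than replicate 4 it was 5.09 to 11.5. No such value is given between ELS replicate 2 and the controls, so these values do not place it near them. ELS replicate 2 was chosen for leaving out with earlier results of these data known. With ELS replicate 2 and control replicate 4 both left out, Grik2 was the 1 member that passed. It was lower in ELS by 0.19 on the log2 scale (limma, log2 fold change -0.19 ± 0.05, adjusted p = 0.0487). The 4 of 4 remaining ELS libraries lay below every control. That was fixed in advance, since ELS replicate 2 was the only ELS library not below every control. The adjusted p rests on the same choice and is not separate support for a difference. With both libraries left out 7.62% of all genes were called, 4.12% were called lower, and 8.4% had every ELS library below every control.

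Grik3 encodes GluK3, a low-affinity subunit known for weak sensitivity to glutamate and for presynaptic receptors. Grik3 (ENSRNOG00000008992) was at 10.4, 9.91, 7.51, 3.93 and 9.87 RPKM in control replicates 1 to 5 and at 10.9, 11.5, 11.3, 11.8 and 11.6 RPKM in ELS replicates 1 to 5. Every ELS library lay above every control library, which held for 1 of the 5 members. Groups did not overlap in 5.68% of all genes, and ELS was the higher in 3.08%. The gap was narrow, since control replicate 1 and ELS replicate 1 were next to each other, and the controls were spread widely. The means were 8.32 ± 2.69 and 11.4 ± 0.342 RPKM, a log2 fold change of 0.53 ± 0.23 (SE; 95% interval 0.02 to 1.04; limma, adjusted p = 0.231). Without control replicate 4 the control mean was 9.41 ± 1.29 RPKM and the log2 fold change 0.29 ± 0.09 (limma, adjusted p = 0.120), still with no overlap, as for 4.22% of all genes. The value thus moved by more than 1.5 times with that library, and its direction did not change.

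The spread of Grik3 differed between the groups as well. Its coefficient of variation was 32.4% in controls, 13.7% in controls without replicate 4, and 3.0% in ELS. Counting error alone would give 4.16%, 3.80% and 3.49%. So the ELS libraries varied about as counting error does, and the controls varied more. This difference in spread was not tested.

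Grik4 encodes GluK4, a high-affinity subunit long known from the mossy fibre field of the hippocampus. Grik4 (ENSRNOG00000030910) was at 7.74, 6.59, 7.67, 23.1 and 7.74 RPKM in control replicates 1 to 5 and at 7.24, 8.27, 8.82, 8.33 and 6.99 RPKM in ELS replicates 1 to 5. Control replicate 4 was 2.99 times the mean of the other 9, and only 3.28% of all genes lay at least 1.5 times above every other library in it. The means were 10.6 ± 7.01 and 7.93 ± 0.782 RPKM, a log2 fold change of -0.24 ± 0.30 (SE; 95% interval -0.89 to 0.42; limma, adjusted p = 0.681). Without that library the control mean was 7.44 ± 0.566 RPKM and the log2 fold change turned to 0.09 ± 0.08 (limma, adjusted p = 0.567). So the direction of Grik4 was set by 1 library, and no difference was detectable either way.

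Grik3 went the opposite way in control replicate 4, at 0.374 times the mean of the other 9, and 5.34% of all genes lay at least 1.5 times below every other library there. The bases before the RefSeq starts of Grik3 and Grik4 (build GRCr8) are shown, 250 bases each, 5′ to 3′, with every GC box in capitals. A reference sequence is the same for every library, so it says nothing of control replicate 4. The GC box, a site of Sp factors, was searched as GGGCGG on both strands.
Grik3 chr5:143052192-143052441 (+): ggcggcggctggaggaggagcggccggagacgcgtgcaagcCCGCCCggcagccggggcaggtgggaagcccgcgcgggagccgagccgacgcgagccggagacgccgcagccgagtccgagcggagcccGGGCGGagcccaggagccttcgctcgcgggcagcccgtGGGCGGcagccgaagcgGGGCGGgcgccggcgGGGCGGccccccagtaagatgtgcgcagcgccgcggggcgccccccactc
Grik4 chr8:52102064-52102313 (-): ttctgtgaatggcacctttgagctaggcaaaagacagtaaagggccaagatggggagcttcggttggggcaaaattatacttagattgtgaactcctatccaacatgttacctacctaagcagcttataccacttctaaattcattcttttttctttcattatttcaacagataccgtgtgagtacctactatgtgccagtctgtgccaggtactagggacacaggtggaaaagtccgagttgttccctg
The Grik3 window was 81.6% G or C with 41 CpG dinucleotides and 5 GC boxes, and 99.3% of 33469 such RefSeq windows held less G or C. The Grik4 window was 43.2% G or C with 3 CpG and no GC box, and 21.5% of windows held less. The windows of Grik1, Grik2 and Grik5 were 57.6%, 49.6% and 70.8% G or C, with 0, 0 and 1 GC box. Of all windows, 30.5% held a GC box. The core AGAACA of the glucocorticoid response element, on either strand, was in 17.5% of windows and in 0 of the 5 Grik windows. The TATA box TATAAA was in 12.9% and likewise in 0 of the 5. The full cAMP response element TGACGTCA was in 1.59% of windows and in none of the 5, while its core TGACG, which the full site contains, was in 18.2% and once before Grik2. These are letter matches in 1 window per gene and say nothing of binding.

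Grik5 encodes GluK5, the common high-affinity partner of GluK2 in forebrain. Grik5 (ENSRNOG00000020310) was at 46.2, 48.9, 48.3, 48.6 and 40.2 RPKM in control replicates 1 to 5 and at 51.2, 45.3, 49.8, 45.5 and 49.7 RPKM in ELS replicates 1 to 5. The groups overlapped, with control replicate 5 lowest of all. The means were 46.5 ± 3.66 and 48.3 ± 2.70 RPKM, a log2 fold change of 0.06 ± 0.06 (SE; 95% interval -0.08 to 0.20; limma, adjusted p = 0.632). Without control replicate 5 it was 0.00597 (limma, adjusted p = 0.956).

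Grik1 encodes GluK1, which in cortex is known above all from GABAergic interneurons. Grik1 (ENSRNOG00000001575) was at 3.64, 3.03, 3.48, 3.66 and 3.18 RPKM in control replicates 1 to 5 and at 3.85, 3.73, 3.72, 3.68 and 3.10 RPKM in ELS replicates 1 to 5. The groups overlapped, and ELS replicate 5 was the low library of its group. The means were 3.40 ± 0.284 and 3.62 ± 0.294 RPKM, a log2 fold change of 0.09 ± 0.09 (SE; 95% interval -0.10 to 0.28; limma, adjusted p = 0.581). Its coefficient of variation was 8.35% in controls and 8.14% in ELS, where counting error of its 190 to 252 reads alone would give 6.78% and 6.73%. So little of its spread exceeded counting error.

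**Figure D4:**
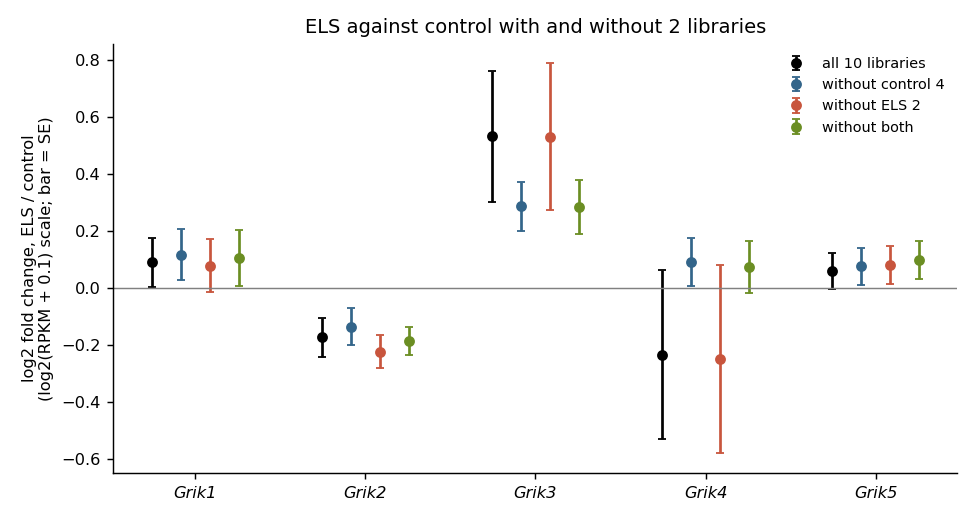
Log2 fold change of each member, ELS against control (points, bar is SE from limma), with all 10 libraries, without control replicate 4, without ELS replicate 2 and without both. Grik3 stays above 0 and Grik2 below 0 in all 4 settings, and Grik4 changes sign without control replicate 4.

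The ratio of Grik3 to Grik2 within a library did not overlap between the groups. It was 0.968, 0.994, 0.714, 0.336 and 0.982 in control replicates 1 to 5 and 1.18, 1.06, 1.28, 1.27 and 1.32 in ELS replicates 1 to 5. Grik2 was thus the more abundant of the pair in 5 of 5 controls and Grik3 in 5 of 5 ELS libraries, with ELS replicate 2 included. Counting error of the ratio was 4.64% to 6.25%, so the gap between the nearest libraries, control replicate 2 and ELS replicate 2, was of the order of that error. This ratio was chosen after the values were seen, as 1 of 10 pairs of members, and is given with no test. Of the 10 pairs, 2 did not overlap between the groups, with or without control replicate 4. No share over pairs of other genes is given beside this count, so it is not read as a result about the members. The other pair was Grik2 to Grik1, at 2.94 to 3.29 in controls and 2.38 to 2.89 in ELS. Its nearest libraries, control replicate 1 and ELS replicate 2, were closer than the counting error of Grik1 alone, 6.78% in controls.

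The marker lists moved with the groups as follows, and their part in the Grik values was not tested. No listed marker in the table was at 0 in any library. Counts of direction here are signs of the log2 fold change with all 10 libraries, and sums are RPKM. The 11 interneuron genes summed to 303.0 to 698.6 in controls and 653.4 to 724.9 in ELS, with 10 of 11 log2 fold changes above 0, and the controls other than replicate 4 began at 589.7. In control replicate 4, 9 of the 11 lay below every other library. Their median log2 fold change was 0.27 with all libraries and 0.08 without that one. The gene below 0, Adarb2, had every ELS library below every control, as did 2.6% of all genes. The 10 excitatory neuron genes summed to 1169 to 1539 in controls and 1315 to 1499 in ELS, with 8 of 10 above 0. Camk2a and Slc17a7, at 697.4 to 963.7 and 351.8 to 426.6, made up most of each of these sums. The highest sum was in control replicate 4, where 4 of the 10 genes lay above every other library and 4 below. Without control replicate 4 these control sums reached 1272, below every ELS library. The 8 oligodendrocyte genes summed to 1146 to 2351 in controls and 865.5 to 1135 in ELS, with 8 of 8 below 0, and the controls other than replicate 4 reached 1475. The 6 precursor genes summed to 51.2 to 60.4 and 42.4 to 46.6, with 6 of 6 below 0. The 8 astrocyte genes summed to 958.1 to 1170 in controls, or to 1031 without replicate 4, and 812.5 to 896.2 in ELS, with 8 of 8 below 0. The 7 microglia genes summed to 94.6 to 112.3 and 83.5 to 100.6, with 7 of 7 below 0. The 7 striatal projection neuron genes summed to 46.1 to 183.7 in controls, from 85.4 without replicate 4, and 89.9 to 102.2 in ELS, with 5 of 7 below 0. The highest of these sums was that of control replicate 1, and the other controls reached 107.0. Each gene of this list was highest in control replicate 1. Adora2a was at 6.14 RPKM there and 0.739 to 1.38 elsewhere, and Drd1 at 8.82 against 1.20 to 3.49. The signs were counted with that library included. By the count of extreme genes above, control replicate 1 did not stand apart, at 0.717% of genes tested. The cause was not tested. The 3 endothelial genes summed to 20.9 to 30.1 in controls, from 26.9 without replicate 4, and 23.3 to 29.0 in ELS, with 3 of 3 below 0. The 3 blood genes, in 4 rows since Hba-a2 had 2, summed to 411.5 to 981.0 and 213.8 to 438.0, with 4 of 4 rows below 0.

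Of the auxiliary subunit genes, Neto1 had the lower mean in ELS and Neto2 the higher. Neto1 (ENSRNOG00000014006) was at 17.1, 15.2, 14.8, 25.9 and 16.7 RPKM in control replicates 1 to 5 and at 13.6, 17.9, 10.7, 12.9 and 12.9 RPKM in ELS replicates 1 to 5. As with Grik2, ELS replicate 2 lay inside the control range and the other 4 ELS libraries were below every control. The log2 fold change was -0.39 ± 0.17 (SE; limma, adjusted p = 0.231), with -0.25 when control replicate 4 was left out (adjusted p = 0.279), -0.49 when ELS replicate 2 was (adjusted p = 0.112) and -0.35 when both were (adjusted p = 0.0354). The values without ELS replicate 2 leave out the only ELS library not below every control. Neto2 (ENSRNOG00000016245) read 16.5, 16.2, 15.7, 9.43 and 16.5 RPKM over control replicates 1 to 5 and 14.8, 17.1, 17.2, 18.9 and 15.6 RPKM over ELS replicates 1 to 5. Its log2 fold change was 0.19 ± 0.15 (SE; limma, adjusted p = 0.488) and 0.04 without control replicate 4.

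C1ql2 and C1ql3 encode secreted C1q-like proteins that bind kainate receptors at mossy fibre synapses. C1ql2 was at 48.1 RPKM in control replicate 4 and at 0.244 to 1.33 RPKM in the other 9 libraries, and it did not pass the filter on low values. C1ql3 averaged 79.2 ± 9.96 RPKM among controls and 91.4 ± 3.89 RPKM after ELS (log2 fold change 0.21 ± 0.08, SE; limma, adjusted p = 0.178), with overlap in control replicate 3.

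Of 23 genes in 5 lists of kainate receptor partners, 21 were tested and 0 passed. Cask had no row that was used here, and C1ql2 did not pass the filter. At an unadjusted p under 0.05 by limma 6 of 21 were higher and 3 lower, against 10.1% and 10.3% of all genes. Their median log2 fold change was 0.03. Without ELS replicate 2, Dlg4 passed, in a setting where 3.03% of all genes did. Without that library and control replicate 4, Dlg4, Neto1 and Ppp3ca passed, against 7.62% of all genes.

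Among 8 tested scaffold and transport partners 6 had log2 fold changes above 0 and 2 below. Snap25, a SNARE protein that also binds GluK5, averaged 634.9 ± 59.2 RPKM among controls and 778.6 ± 80.7 RPKM after ELS (log2 fold change 0.29 ± 0.08, SE; limma, adjusted p = 0.133). Dlg4, the postsynaptic scaffold PSD-95, was at 177.8 ± 6.64 and 196.3 ± 8.77 RPKM (0.14 ± 0.04, adjusted p = 0.138, and 0.17 without ELS replicate 2, adjusted p = 0.0445). Grip1, a PDZ scaffold, had a log2 fold change of -0.08 ± 0.09, and -0.0281 without control replicate 4. Kif17, a dendritic kinesin, had -0.14 ± 0.16, and 0.03 without control replicate 4, where it was at 6.73 RPKM against 3.29 to 4.06 elsewhere.

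Among 8 turnover and modification partners 4 had log2 fold changes above 0 and 4 below. Prkca, the kinase PKC alpha, was at 21.0, 26.4, 18.4, 31.9 and 21.2 RPKM in control replicates 1 to 5 and at 15.1, 19.3, 6.39, 13.4 and 11.9 RPKM in ELS replicates 1 to 5. ELS replicate 2 was again the library that overlapped the controls. The log2 fold change was -0.90 ± 0.26 (SE; limma, adjusted p = 0.138). Klhl24, also called KRIP6, which binds GluK2, was at 17.2 ± 1.39 and 13.2 ± 3.26 RPKM (-0.41 ± 0.16, adjusted p = 0.192, and -0.27 without ELS replicate 3). Cul3, a ubiquitin ligase scaffold, came to 0.12 ± 0.05 on that scale (adjusted p = 0.236). The phosphatase gene Ppp3ca had 0.07 ± 0.15 with all libraries, 0.22 without control replicate 4 and 0.26 without ELS replicate 2 and control replicate 4 (adjusted p = 0.0443), chosen after its value was seen.

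Adarb1 encodes ADAR2, the enzyme that edits the Q/R site of Grik1 and Grik2 transcripts, and averaged 29.1 ± 2.57 RPKM among controls and 29.0 ± 0.815 RPKM after ELS (log2 fold change -0.00169 ± 0.06, SE; 95% interval -0.13 to 0.13; limma, adjusted p = 0.989). Adar, its relative, was at 28.0 ± 2.28 and 31.2 ± 0.961 RPKM, with 5 of 5 ELS libraries above every control (0.16 ± 0.06, adjusted p = 0.171). The same held for 3.08% of all genes. The gap was narrow, with the highest control at 29.9 RPKM and the lowest ELS library at 30.4 RPKM. Editing itself is not readable from gene levels.

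**Figure D5:**
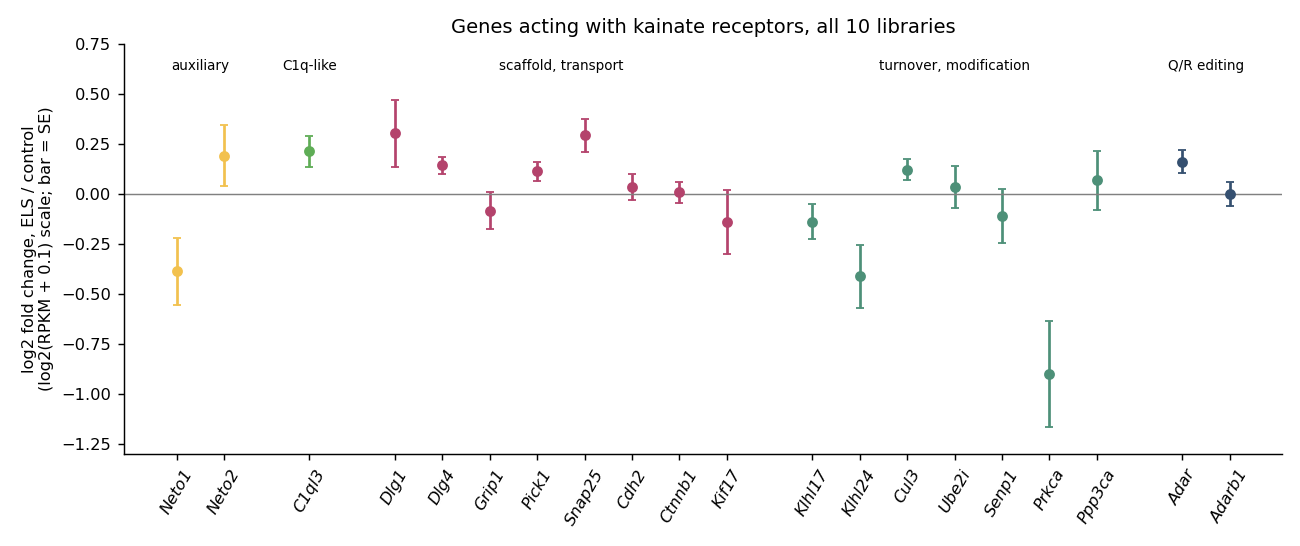
Log2 fold change, ELS against control, of the tested partner genes reported here (points, bar is SE from limma), grouped and coloured by list. Prkca, at -0.90, lies farthest from 0, and none of those plotted passed at an adjusted p under 0.05.

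The other ionotropic glutamate receptor genes give a frame for the members. Over all genes tested, 10.1% were higher and 10.3% lower at an unadjusted p under 0.05 by limma, and the counts of both families here are small beside such shares. Of 7 NMDA receptor genes 0 passed, 1 was higher and 3 were lower at that unadjusted level, with a median log2 fold change of -0.26. Grin1, the obligatory subunit, had 0.21 ± 0.05 and Grin2d 0.18 ± 0.09, while the glutamate-binding subunit genes Grin2a and Grin2b had -1.52 ± 0.44 and -1.12 ± 0.36 (SE). Leaving out ELS replicate 2, Grin1 (0.24), Grin2a (-1.93) and Grin2b (-1.45) passed by limma, with adjusted p of 0.0223, 0.0180 and 0.0223, in a setting where 3.03% of all genes did. Of 4 AMPA receptor genes 0 passed, 1 was higher and 1 lower at that unadjusted level, with a median of 0.03. Gria4 had 0.33 ± 0.11, Gria3 0.17 ± 0.12, Gria2 -0.11 ± 0.05 and Gria1 -0.25 ± 0.25 (SE). Without control replicate 4 Gria3 was at 0.0452, Gria2 at -0.0758 and Gria1 at 0.0250. Gria4 passed by limma when both libraries were left out (0.28, adjusted p = 0.0356), as 7.62% of all genes did. The delta receptor gene Grid1 had -0.06 ± 0.11 (SE), and -0.00918 without control replicate 4. No difference between these families and the kainate family was tested.

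Genes whose levels followed a member most closely over the 10 libraries are named by Pearson r, searched over 12935 genes and given as a description. For Grik3 these were Cntnap4, Coro2a and Nrsn1, with r of 0.989, 0.988 and 0.988, and 0.930, 0.936 and 0.921 without control replicate 4. For Grik4 they were Cacng8, Iqgap2 and Scn3b, with r of 0.986, 0.982 and 0.981, which became 0.718, 0.773 and 0.629 without that library. The likeness to Grik4 thus rested largely on control replicate 4, in which Cacng8, an AMPA receptor auxiliary gene, was at 77.4 RPKM against 28.3 to 33.2 elsewhere. For Grik2 they were RGD1304728, LOC688801 and Agbl3 (0.957, 0.949 and 0.949). For Grik5 they were Dhcr7, RGD1310769 and Peli3 (0.940, 0.936 and 0.934). For Grik1 they were Drosha, Zbtb17 and RT1-CE16 (0.894, 0.893 and 0.874), and the Spearman correlation of RT1-CE16 was 0.394.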

How the data were processed

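The authors deposited RPKM-type values for 16041 rat genes in 10 libraries. Per the submitters' processing notes STAR, featureCounts and build rn6 were used, without versions. The strand setting, the annotation and the rule for listing genes were not stated in the labels or notes, and without a known strand setting reads of overlapping or antisense genes could be shared. The kit was a stranded mRNA kit, per the labels' protocols. No source names the unit as RPKM rather than FPKM. Whole reads were recovered for 16015 genes (tolerance 0.002 reads), 100% of those above 0 in any library, and 71.1% to 73.7% of each total fell in listed genes. The deposited table held 0 columns of other samples.

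The log2 of RPKM + 0.1 was taken. A gene was tested where 5 or more libraries reached 0.5 RPKM, which left 14642. Limma tests (version 3.58.1, R 4.3.3) of ELS against control were two-sided, with trend and robust options. The procedure was tested on simulated reads. Levels of neighbouring members were compared within libraries by an exact sign-flip test over 1024 assignments. Limma-voom on the recovered reads used library totals scaled by median of ratios.

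The members, lists and alternatives were chosen with earlier results of these data known. Named are all members, all auxiliary, C1q-like and editing genes, the 2 genes of lowest p per direction in each other pathway list, and the 3 genes most like each member with a mean of at least 1 RPKM. Ppp3ca and the hippocampal genes were named after their values were seen. Promoter windows are RefSeq's, matched by symbol for 5 of 5 members. The replicate numbers are not said to mark a litter or batch, so no block was used in the main fit. Same-numbered libraries also did not deviate together. A few genes that the rule names are not reported here.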

Additional observations from a re-analysis of the deposited data

Results flagged for a closer look

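Of 14 groups of 5 libraries checked in Grik1 to Grik5, Neto1 and Neto2, 5 held a library whose gap to its nearest neighbour was large for the range of its group (Dixon's test at 95%, which chance meets in about 1 group of 20). These were Grik4 at 23.1 RPKM in control replicate 4 (next highest 7.74), Neto1 at 25.9 RPKM in the same library (next highest 17.1), Neto2 at 9.43 RPKM in the same library (next lowest 15.7), Grik2 at 10.8 RPKM in ELS replicate 2 (the other ELS libraries at 8.80 to 9.30) and Grik1 at 3.10 RPKM in ELS replicate 5 (next lowest 3.68). So 3 of the 5 fell in control replicate 4, where Prox1 and C1ql2 were also far above all other libraries. The cause was not tested.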

How the results depend on the processing

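The 5 members were refitted under 21 alternatives. Grik1, Grik3 and Grik5 stayed above 0 and Grik2 below 0 in 21 of 21, and Grik4 kept its sign in 19. Their adjusted p ran over the alternatives from 0.406 to 0.787 for Grik1, 0.0487 to 0.353 for Grik2, 0.0991 to 0.380 for Grik3, 0.547 to 0.977 for Grik4 and 0.392 to 0.956 for Grik5. Without control replicate 4 and ELS replicate 2 the count of members that passed was 1 (Grik2, -0.19), 3 partner genes passed, Grik4 was at 0.07, Kif17 at 0.00379 and Gria1 at 0.0446. The cause of these moves was not tested. When each library was left out in turn, Grik2 ran from -0.23 to -0.14, Grik4 from -0.36 to 0.0894 (the last without control replicate 4), Kif17 from -0.19 to 0.0264, Adarb1 from -0.0409 to 0.0390, Gria1 from -0.34 to 0.0250, Grid1 from -0.13 to 0.0298 and the count of partners that passed from 0 to 1. The log2 ratio of Grik2 to Grik3 then ran from -0.10 to 0.12 and that of Grik3 to Grik4 from 0.0769 to 0.44, with the ends -0.10 and 0.44 reached without control replicate 4. With sample weights, limma-voom gave 944 calls over all genes (6.45%) and 0 among the members. Control replicate 4 had a weight of 0.171 there, with log2 fold changes of -0.18 for Grik2 and 0.30 for Grik3. The lowest members are limited by depth, since Grik1 had at most 252 reads in a library.

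With the replicate number as a block, Grik2 was at -0.17 (limma, adjusted p = 0.297) and Grik3 at 0.53 (adjusted p = 0.288), with 0 members and 0 partners called. The numbers gave no sign of pairing: deviations of same-numbered libraries from their group means correlated at -0.0817 to 0.0658 over the tested genes, and 2 of 5 ELS libraries correlated best with their own number.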
